A study of Homo sapiens with 6 samples.

Results

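The human embryonic stem cell lines HES2 and H9 were compared gene by gene in 6 RNA sequencing libraries, 3 of each line. The members of the comparison are the genes whose normalised read count differed between HES2 and H9 in the same direction in all 3 paired arms, which were 7652 of 17768 genes tested and of 17929 in the deposited table. H9 and HES2 are independently derived lines of pluripotent cells. The study these libraries come from asked what DDX18, a nucleolar helicase of the DEAD-box family, does for the identity of such cells. Each line gave 1 library infected with virus for a control hairpin against luciferase (shLuc), 1 with the DDX18 hairpin shDDX18#1 and 1 with the DDX18 hairpin shDDX18#3. Thus every library, controls included, comes from infected cells, sampled on day 4 and kept on irradiated mouse embryonic fibroblasts in medium with bFGF. The labels give 1 library per line and arm and do not state that cultures were separate. Each p-value of a line difference thus sets it against how much it varied between the 3 arms of these 6 libraries. In that spread, noise between libraries and a line difference that changes with knockdown cannot be told apart. The p-values do not speak for further cultures. Passage number, culture date and karyotype are not given in the labels, so what belongs to a line and what belongs to the culture it was taken from cannot be told apart.

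Human embryonic stem cell lines each carry the genome of a different embryo, and lines kept in culture are known to differ in alleles, in DNA methylation of promoters and imprinted regions, and in how readily they leave the pluripotent state. A methylated CpG-rich promoter is generally silent, and neighbouring genes can be silenced together. Imprinted genes such as H19 are normally read from 1 parental allele, and their control is known to be altered in some stem cell cultures. The text below gives values in read counts scaled to library size (CPM), always in the order shLuc, shDDX18#1 and shDDX18#3, and differences as HES2 minus H9 on log2(CPM + 1).

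The libraries held between 2668179 and 4271741 reads, so that 1 read was worth between 0.224 and 0.408 CPM, and values under about 1 CPM rest on 3 reads or fewer. DDX18 stood at 153, 19.2 and 47.3 CPM in H9 and at 161, 39.3 and 60.4 CPM in HES2. All 4 hairpin libraries stood under the shLuc library of their line, and the difference of DDX18 between the lines did not pass (0.47 with SE 0.18, limma adjusted p = 0.184). The labelled cell type was checked against 10 markers of pluripotent cells. NANOG was at 90.8, 23.3 and 46.7 CPM in H9 and at 95.01, 26.4 and 52.6 CPM in HES2, and SOX2 at 422, 82.1 and 178 CPM in H9 and at 377, 72.7 and 151 CPM in HES2. LIN28A lay between 662 and 1214 CPM and DNMT3B between 277 and 1527 CPM over the 6 libraries. Of the 10 markers only TERF1, a telomere-binding protein, differed between the lines, by 0.70 (adjusted p = 0.0131). POU5F1 itself was listed at 0.322 to 3.58 CPM, while its processed copy POU5F1P3 was at 51.2 to 207 CPM and POU5F1B at 7.72 to 53.2 CPM. Reads of POU5F1 and its copies cannot be kept apart with certainty in this table, and no level of the gene is drawn from them.

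Most genes stood at similar levels in the 2 lines, and those that passed in limma were more often higher in H9. With arm as a block in limma, 963 genes passed at an adjusted p under 0.05, which is 5.42% of those tested, and 708 (3.98%) were higher in H9 and 255 (1.44%) in HES2. Of all genes tested, 43.1% kept 1 direction over the arms (22.8% towards HES2 and 20.3% towards H9), and all 963 called genes were among them. The 3 libraries of each line did not overlap for 585 of the 963, beside 14.3% of all genes tested. Over all genes tested, called or not, 1382 did not overlap towards HES2 and 1166 towards H9. A difference of at least 2-fold in each of the 3 arms was seen for 368 called genes, 276 higher in H9 and 92 in HES2. The median over all genes was 0.03, and the values of the lines correlated across genes with Pearson r of 0.963, 0.930 and 0.952 in the 3 arms, where genes are not independent replicates. These counts hang on single arms. Since arm is a block, leaving out 1 library takes its whole arm out of the line difference, here and in all such fits below. Leaving out either library of an arm therefore gives nearly the same fit, not a separate check. With 1 library left out at a time, the counts ran from 10 to 778 genes for HES2 and from 82 to 1397 for H9. They were lowest without either shDDX18#3 library (95 calls without that of H9, 101 without that of HES2). Both shLuc libraries had the opposite effect, with 2154 calls without that of H9 and 2146 without that of HES2.

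**Figure D1:**
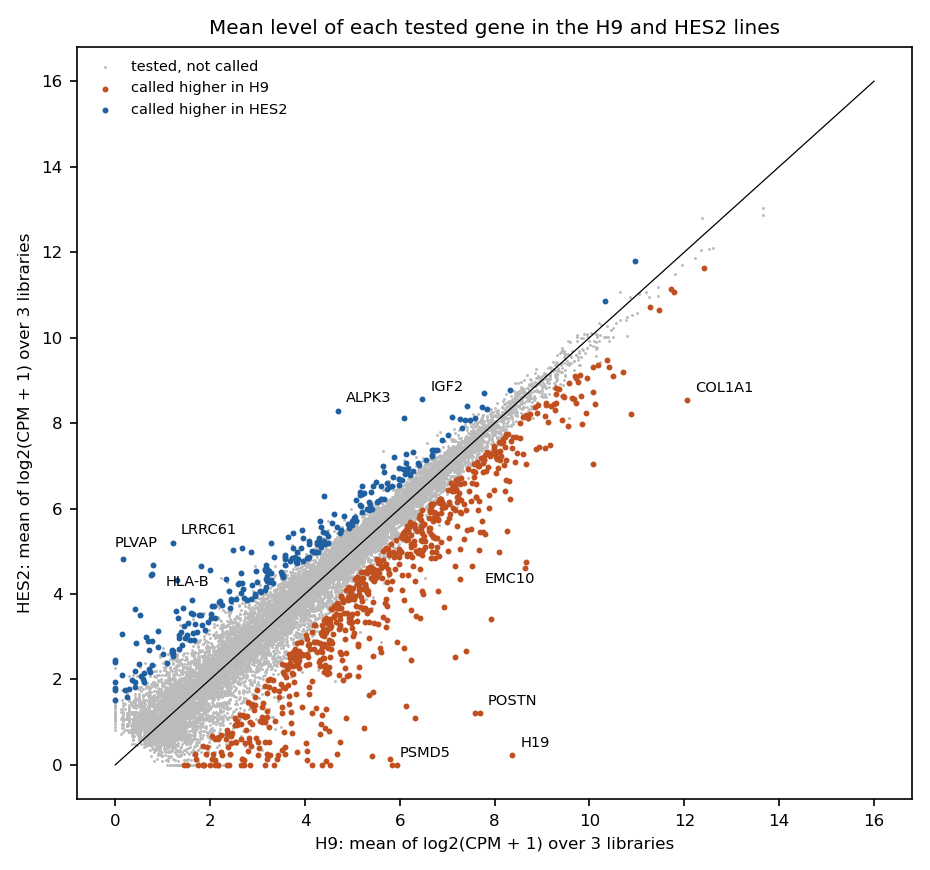
Mean level of each tested gene in H9 (x axis) and in HES2 (y axis), as the mean of log2(CPM + 1) over the 3 libraries of the line. Each point is 1 gene, the line marks equal levels, and the coloured points are the 708 genes called higher in H9 and the 255 called higher in HES2. Along the lower edge lie genes near 0 in HES2, among them H19 and PSMD5.

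Among the genes most raised in HES2 were several that were close to absent in H9. PLVAP, a protein of the diaphragms of endothelial fenestrae, was at 0, 0.408 and 0 CPM in H9 and at 5.59, 86.6 and 37.0 CPM in HES2 (4.64 with SE 0.55, adjusted p = 0.00276). Its H9 libraries held at most 1 read each, and the hairpin libraries of HES2 were well above that line's shLuc. LRRC61, a leucine-rich repeat protein, was at 0.831, 2.45 and 0.973 CPM in H9 and at 46.1, 33.8 and 29.2 CPM in HES2 (3.99 with SE 0.30, adjusted p = 0.000359). DPEP1, a membrane dipeptidase, was at 0.277, 0.408 and 1.62 CPM in H9 and at 27.1, 18.98 and 17.8 CPM in HES2. THNSL2, related to bacterial threonine synthase, was at 0.554, 0.408 and 1.30 CPM in H9 and at 18.8, 28.3 and 17.5 CPM in HES2. In these 3 genes the HES2 levels were similar in the control and the hairpin libraries, and the lines did not overlap.

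ALPK3, a kinase of heart muscle cells, was expressed in both lines, at 19.4, 33.1 and 24.0 CPM in H9 and at 183, 461 and 360 CPM in HES2. Its difference of 3.595 (SE 0.15, adjusted p = 2.73e-05) was the most precisely measured of the 15 largest towards HES2. CSMD1, a large membrane protein with complement control domains, was at 2.21, 0.817 and 1.62 CPM in H9 and at 38.01, 12.9 and 14.2 CPM in HES2. ZNF253, a KRAB zinc finger protein, was at 1.38, 2.04 and 4.86 CPM in H9 and at 27.3, 21.6 and 24.2 CPM in HES2. The remaining genes of the 15 were HLA-B, ZBED6CL, TMPRSS13 (2.97), PKIB (2.55), REC8 (2.55), CD93 (2.45), TOR4A (2.40) and TAL1 (2.40). REC8, the meiotic form of a cohesin subunit, went from 4.15, 3.27 and 1.95 CPM in H9 to 36.7, 13.8 and 22.3 CPM in HES2. All 15 passed without either shLuc library and 13 without either shDDX18#1 library, against 9 without H9 shDDX18#3 and 8 without HES2 shDDX18#3.

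Higher in H9 were H19, several structural genes of muscle and connective tissue, and a few genes of which HES2 had no read at all. H19, an imprinted long noncoding RNA, was at 131, 518 and 526 CPM in H9 and at 0.224, 0.322 and 0 CPM in HES2 (-8.14 with SE 0.39, adjusted p = 2.77e-05). Over the 3 HES2 libraries it had 2 reads in all, against 473 or more in each H9 library. PSMD5, a chaperone in the assembly of the 26S proteasome, was at 67.0, 50.2 and 51.9 CPM in H9 and at 0 in every HES2 library (adjusted p = 2.73e-05). Against a floor of 3 reads over the 3 HES2 libraries together, its mean was at least 210-fold lower there. OXCT1, which starts the use of ketone bodies, was at 36.8, 34.3 and 40.5 CPM in H9 and at 0, 2.25 and 0.835 CPM in HES2 (-4.39 with SE 0.35, adjusted p = 0.000482). Unlike H19, PSMD5 and OXCT1 hardly differed between the arms of H9.

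Another group of the 15 had its lowest H9 level in shLuc, by a small margin in ACTA1. POSTN, a matrix protein of connective tissue, was at 31.8, 1667 and 158 CPM in H9 and at 1.56, 1.61 and 0.835 CPM in HES2 (-6.48 with SE 0.81, adjusted p = 0.00375). CILP, a protein of cartilage matrix, was at 7.75, 328 and 58.0 CPM in H9 and at 0, 0.322 and 0 CPM in HES2. MXRA5, another matrix protein, was at 41.0, 1168 and 291 CPM in H9 and at 4.02, 19.6 and 10.9 CPM in HES2. In all 3 the H9 shDDX18#1 library was highest and the lines did not overlap. ABI3BP (-5.20), THBS4 (-4.74) and COMP (-4.41), further genes of extracellular matrix, had the same order of H9 libraries. ACTG2, an actin of smooth muscle, was at 36.3, 96.0 and 139 CPM in H9 and at 1.79, 0.322 and 1.67 CPM in HES2, and ACTA1, the skeletal muscle actin, at 95.8, 103 and 289 CPM in H9 and at 3.58, 2.25 and 11.97 CPM in HES2. Of the 15, 14 passed without either shDDX18#1 library and 10 without either shDDX18#3 library.

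Genes could also be sorted as on in one line and off in the other, meaning at least 5 CPM in every library of the first and at most 3 reads in every library of the second. By this description 14 genes were on in H9 only and 2, PLVAP and ZBED6CL, in HES2 only. Among the 14 were H19, CILP, HLA-C, PSMD5, LY6K, DCN, MYH14, CLEC11A, ACOT2, the pseudogene PPIAP31 and 2 pseudogenes without a symbol (ENSG00000227766 and ENSG00000224114). ACOT2, a mitochondrial acyl-CoA thioesterase, was at 7.75, 11.03 and 7.46 CPM in H9 and at 0.224, 0.322 and 0 CPM in HES2. LY6K, a GPI-anchored protein of the testis, was at 7.48, 19.2 and 44.7 CPM in H9 and at 0.224, 0.965 and 0.835 CPM in HES2. Asking for only 2 CPM in the first line gave 41 and 17 genes, so the numbers depend on the level set.

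**Figure D2:**
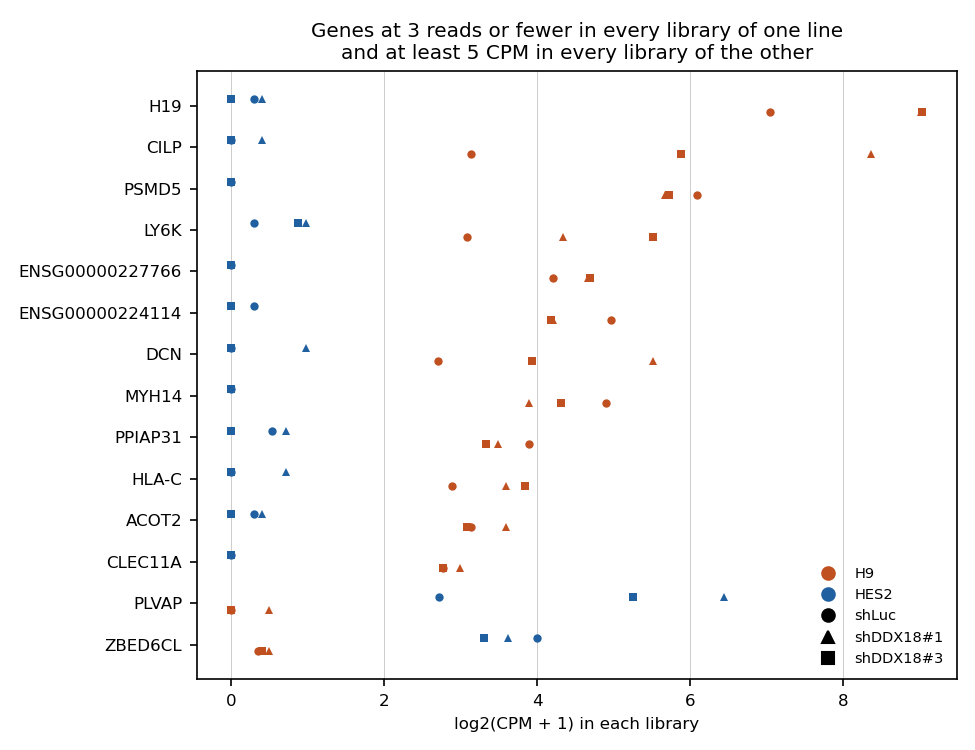
Level of 14 of the genes described as on in one line and off in the other, as log2(CPM + 1) in each of the 6 libraries (x axis). Colour gives the line and the symbol gives the arm. The genes on in H9 have their HES2 libraries under 1 on this scale, and PLVAP and ZBED6CL show the opposite.

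Some of these genes are neighbours. On chromosome 19, 15 tested genes lie from MYH14 to CLEC11A in the GENCODE 29 order, and 11 of them were higher in H9 and 0 in HES2, with a median of -2.21. The stretch was picked after its values had been seen, and it is given as a description. EMC10, a subunit of the complex that inserts proteins into the endoplasmic reticulum membrane, was at 164, 185 and 198 CPM in H9 and at 23.0, 27.4 and 22.6 CPM in HES2 (-2.86 with SE 0.13, adjusted p = 2.77e-05). MYH14, a nonmuscle myosin heavy chain, was at 28.8, 13.9 and 18.8 CPM in H9 and at 0 in each HES2 library, at least 76.3-fold lower in the mean. CLEC11A, a secreted growth factor, was at 5.81, 6.94 and 5.84 CPM in H9 and had no read in HES2.

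LRRC4B, SYT3, C19orf81 and SHANK1 were also without a read in every HES2 library, at H9 levels of 8.58, 2.04 and 7.46 CPM for LRRC4B, a synaptic adhesion protein, and of 1.62 to 1.94 CPM for SHANK1, a scaffold of the synapse. JOSD2, a deubiquitinase, was at 3.32, 12.3 and 8.43 CPM in H9 and at 0.447, 0 and 0.557 CPM in HES2. FAM71E1 (-2.21) and ENSG00000268854 (-2.88) next to EMC10 lay in the same direction in all 3 arms. Reads were not separated by strand, so overlapping genes of this stretch can share them. In the midst of the stretch NR1H2, a nuclear receptor for oxysterols, was at 36.3, 61.3 and 32.7 CPM in H9 and at 27.9, 40.9 and 31.5 CPM in HES2, and POLD1, the catalytic subunit of DNA polymerase delta, at 110, 40.8 and 78.4 CPM and at 104, 54.4 and 59.6 CPM. Neither passed (adjusted p = 0.277 and 0.961), nor did SPIB and MYBPC2, both under 6 CPM. The next genes outward, ZNF473 at 13.8 to 17.3 CPM and C19orf48 at 68.2 to 170 CPM over all 6 libraries, did not pass either. Of the 11 calls 10 were kept without either shLuc library and 8 without either shDDX18#1 library, but 3 without H9 shDDX18#3 and 4 without HES2 shDDX18#3.

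PSMD5 has a neighbour with the same pattern on chromosome 9, the transcribed pseudogene CUTALP, at 11.6, 15.5 and 10.05 CPM in H9 and at 0.224, 0.644 and 1.39 CPM in HES2 (-2.97 with SE 0.33, adjusted p = 0.00228). On either side of the pair, FBXW2 was at 60.0 to 86.6 CPM in H9 and 56.0 to 80.3 CPM in HES2, and PHF19 at 27.4 to 51.2 and 23.5 to 39.1 CPM, with no call. On chromosome 7, ACTR3C, LRRC61 and ZBED6CL follow each other and were all higher in HES2. ZBED6CL was at 0.277, 0.408 and 0.324 CPM in H9, 1 read in each library, and at 14.98, 11.3 and 8.91 CPM in HES2. ACTR3C, an actin-related protein, was at 0, 0 and 0.324 CPM in H9 and at 4.47, 3.54 and 2.23 CPM in HES2. The calls of PSMD5, CUTALP, LRRC61 and ZBED6CL passed with any 1 of the 6 libraries left out.

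The 250 bases before the start of transcription are shown for 6 of these genes, to show the CpG content of promoters of genes that were low or at 0 in one of the lines. All 6 were matched by symbol in the RefSeq promoter table of GRCh38.p14, and 7 of the 11 called chromosome 19 genes have an entry there. Each is written 5′ to 3′ on the strand of the gene, with every CG dinucleotide in capitals.
PSMD5, chr9:120842923-120843172, minus strand: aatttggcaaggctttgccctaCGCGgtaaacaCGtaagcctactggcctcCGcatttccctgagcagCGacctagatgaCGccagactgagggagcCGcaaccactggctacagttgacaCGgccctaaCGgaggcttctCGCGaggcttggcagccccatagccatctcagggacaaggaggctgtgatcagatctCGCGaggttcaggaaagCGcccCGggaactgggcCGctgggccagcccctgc
EMC10, chr19:50476257-50476506, plus strand: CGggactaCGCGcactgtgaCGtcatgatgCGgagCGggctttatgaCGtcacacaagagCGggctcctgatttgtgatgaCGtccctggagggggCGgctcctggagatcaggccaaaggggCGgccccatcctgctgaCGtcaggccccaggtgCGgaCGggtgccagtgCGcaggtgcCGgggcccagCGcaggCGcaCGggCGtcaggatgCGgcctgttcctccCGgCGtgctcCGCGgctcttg
LRRC4B, chr19:50551043-50551292, minus strand: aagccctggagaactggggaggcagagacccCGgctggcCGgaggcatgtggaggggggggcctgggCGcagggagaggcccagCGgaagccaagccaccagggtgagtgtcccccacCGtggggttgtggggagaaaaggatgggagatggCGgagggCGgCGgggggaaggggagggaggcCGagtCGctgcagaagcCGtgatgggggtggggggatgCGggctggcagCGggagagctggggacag
CLEC11A, chr19:50723114-50723363, plus strand: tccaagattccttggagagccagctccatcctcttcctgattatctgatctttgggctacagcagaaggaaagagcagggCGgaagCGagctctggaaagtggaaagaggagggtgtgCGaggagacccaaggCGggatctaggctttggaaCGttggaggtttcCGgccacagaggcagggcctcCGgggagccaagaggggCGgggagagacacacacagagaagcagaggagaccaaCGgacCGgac
LRRC61, chr7:150323105-150323354, plus strand: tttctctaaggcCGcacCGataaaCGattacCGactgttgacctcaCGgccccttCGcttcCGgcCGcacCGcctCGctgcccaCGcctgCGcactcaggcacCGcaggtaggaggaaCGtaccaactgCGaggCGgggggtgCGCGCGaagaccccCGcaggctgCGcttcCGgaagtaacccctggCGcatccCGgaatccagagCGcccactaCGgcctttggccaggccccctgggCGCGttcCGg
ACTR3C, chr7:150323546-150323795, minus strand: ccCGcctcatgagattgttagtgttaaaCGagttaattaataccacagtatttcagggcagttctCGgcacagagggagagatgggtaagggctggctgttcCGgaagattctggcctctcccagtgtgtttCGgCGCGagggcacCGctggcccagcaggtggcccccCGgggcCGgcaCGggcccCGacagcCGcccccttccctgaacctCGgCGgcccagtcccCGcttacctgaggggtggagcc
These windows hold 16 (PSMD5), 25 (EMC10), 13 (LRRC4B), 10 (CLEC11A), 29 (LRRC61) and 16 (ACTR3C) CG dinucleotides, counted on the printed strand, which for this palindromic pair equals the other. Over 34943 promoter windows of the same length the median was 11, with quartiles of 3 and 23, and 93.9% held at least 1. LRRC61 is thus in a CpG-rich window, with 14.1% of all promoters holding as many or more, and CLEC11A is near the middle (52.1%). In the chromosome 19 stretch the uncalled POLD1, NR1H2 and SPIB had 26, 17 and 7, by the entry with the most. The called genes not shown, JOSD2, MYH14, SYT3 and C19orf81, had 34, 27, 22 and 2. The counts of called and uncalled genes thus overlapped. Of the 4 ACTR3C entries, the 1 with its start nearest that of LRRC61 was taken, so their distance follows from that choice. From these starts, 190 bases apart, LRRC61 and ACTR3C are transcribed in opposite directions, and both were near 0 in H9 and expressed in HES2. Methylation was not measured in these libraries, and the letters are a description.

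**Figure D3:**
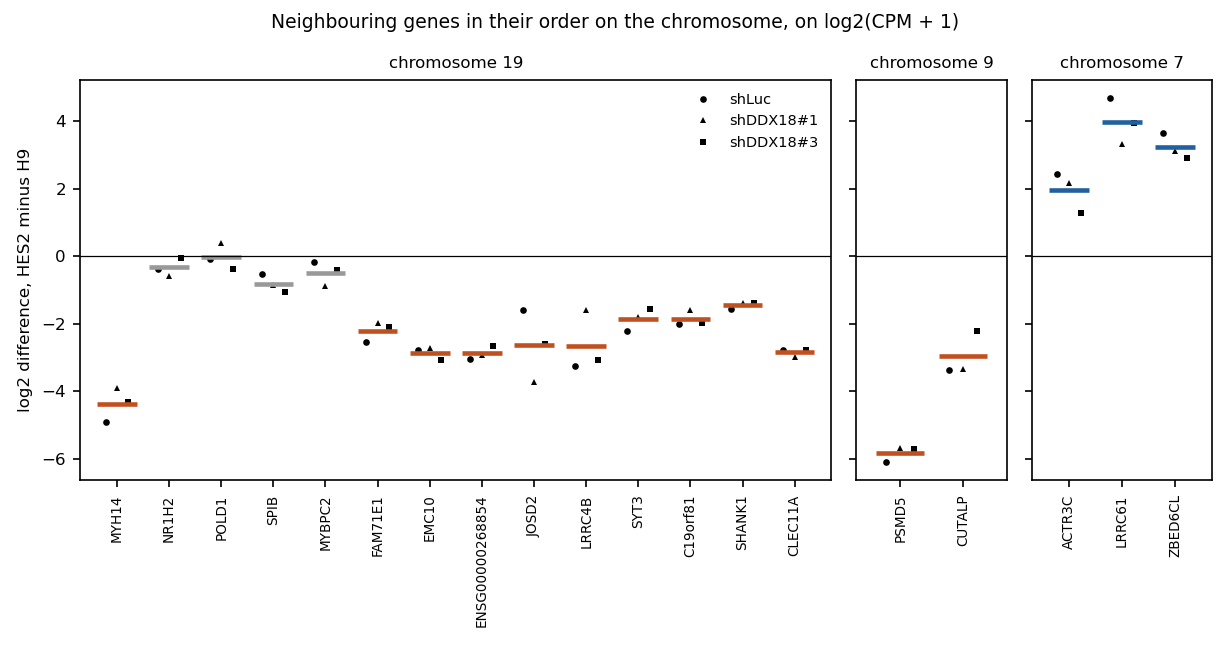
Difference between the lines (y axis, HES2 minus H9 on log2(CPM + 1)) for neighbouring genes named here, in their order on chromosomes 19, 9 and 7 (x axis). Points are the 3 arms and the bar is the fitted mean, coloured where the gene was called higher in H9 or in HES2 and grey where it was not. On chromosome 19 the 4 grey bars near 0 stand between genes with differences of -1.45 to -4.37.

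Over the tested genes taken in chromosomal order, 18 runs of at least 3 adjacent calls in 1 direction were found, 15 towards H9 and 3 towards HES2, and the longest was the 9 genes from FAM71E1 to CLEC11A. Several runs include antisense or unnamed genes, such as VIM-AS1 beside VIM. Where such genes overlap they can share reads, so a run is not a count of independent genes. The chromosome with the largest share of called protein-coding genes, apart from the mitochondrial genome, was X, where 47 of 497 (9.46%) were higher in H9 and 14 (2.82%) in HES2, beside 4.42% and 1.63% of protein-coding genes on all chromosomes. The median of X was 0.00, beside 0.03 for all. Towards the end of the short arm, 14 of 29 tested genes from GYG2 to GPM6B were higher in H9 and 2 in HES2, with a median of -0.64. That stretch was picked with values in view around runs of calls, so its counts are a description. MID1, a ubiquitin ligase of microtubules, was at 181, 131 and 202.6 CPM in H9 and at 53.7, 30.9 and 51.0 CPM in HES2 (-1.92 with SE 0.12, adjusted p = 0.000147). TMSB4X, which binds actin monomers, was at 871, 1265 and 1155 CPM in H9 and at 390, 411 and 478 CPM in HES2, and PRKX, a cAMP-dependent kinase, at 217, 196 and 175 CPM and at 79.6, 93.3 and 60.1 CPM.

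NLGN4X, a neuroligin of the synapse, was at 250, 96.4 and 149 CPM in H9 and at 84.5, 39.6 and 62.1 CPM in HES2. In the same stretch PNPLA4, a lipase-like enzyme, went the other way, from 1.11, 2.86 and 2.59 CPM in H9 to 16.1, 11.9 and 12.5 CPM in HES2 (2.22, adjusted p = 0.00669). Further genes of the stretch, such as HCCS (24.1 to 41.5 CPM in H9 and 27.0 to 34.5 CPM in HES2), OFD1 (20.8 to 25.3 and 24.5 to 32.9 CPM) and STS (8.58 to 14.9 and 3.58 to 9.65 CPM), did not pass. On the long arm, 7 of 14 tested genes of the BEX and TCEAL cluster were higher in HES2 and 0 in H9, with a median of 0.59. This cluster too was picked with values in view, and its counts are a description. BEX4 was at 49.0, 50.2 and 50.2 CPM in H9 and at 110, 111 and 121 CPM in HES2 (1.18 with SE 0.12, adjusted p = 0.00132), and BEX3 at 227, 187 and 242 CPM in H9 and at 419, 380 and 447 CPM in HES2. TCEAL4, from a family related to a transcription elongation factor, went from 41.3, 45.7 and 39.9 CPM to 95.7, 92.7 and 86.3 CPM. These levels hardly moved between the arms of a line. Of the 16 calls on the short arm 3 passed without H9 shDDX18#3 and 4 without HES2 shDDX18#3, and of the 7 on the long arm 0 passed without either.

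**Figure D4:**
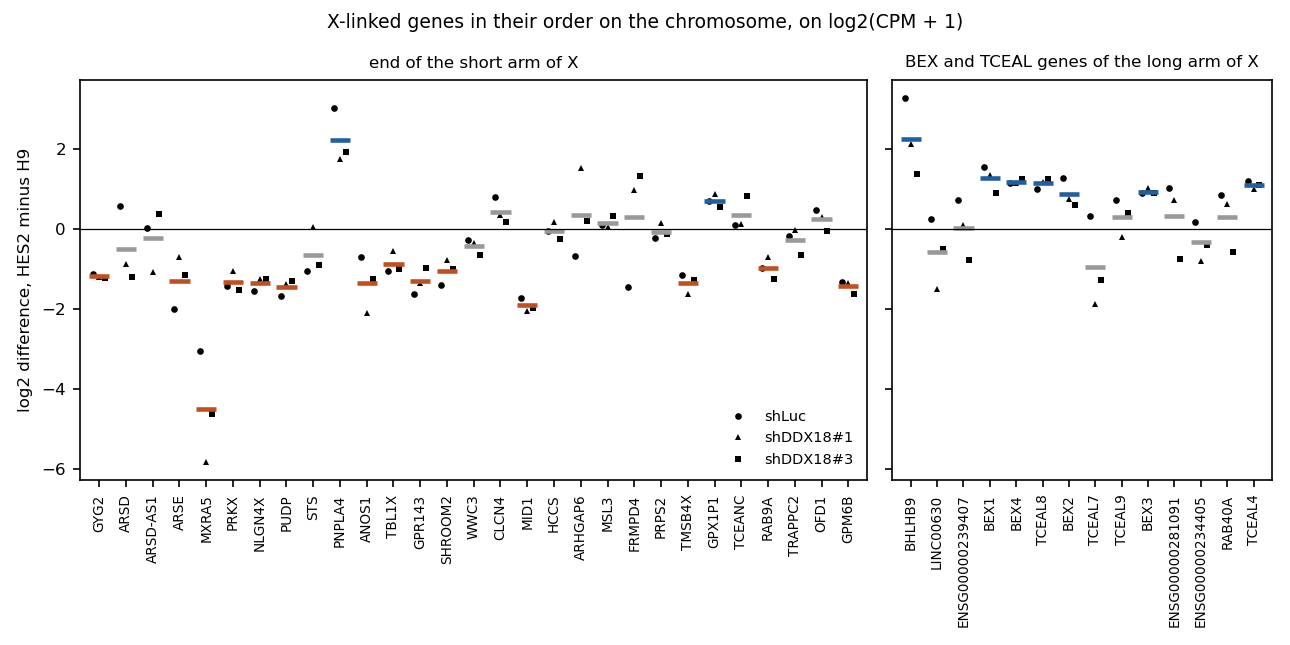
Difference between the lines (y axis, HES2 minus H9 on log2(CPM + 1)) for X-linked genes in chromosomal order (x axis), with the 3 arms as points and the fitted mean as a bar, coloured where called. On the left the coloured bars towards H9 lie between -0.87 and -1.92 except for MXRA5 at -4.50, with PNPLA4 at 2.22 and GPX1P1 at 0.70 towards HES2, and the 7 coloured bars on the right lie between 0.86 and 2.26.

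HLA genes present peptides to T cells and are the most polymorphic genes of the genome. Their class I calls lay in both directions and their class II calls towards H9. HLA-C was at 6.37, 11.03 and 13.3 CPM in H9 and at 0, 0.644 and 0 CPM in HES2, while HLA-B was at 0.277, 0.817 and 1.30 CPM in H9 and at 8.72, 66.0 and 24.5 CPM in HES2 (3.87 with SE 0.42, adjusted p = 0.0019). B2M, the common light chain of these molecules, was at 55.6, 140 and 81.7 CPM in H9 and at 66.4, 45.7 and 57.1 CPM in HES2 (-0.62, adjusted p = 0.266). The class II genes HLA-DQB1 (-1.78), HLA-DRB1 (-1.55) and HLA-DRB5 (-1.43) were higher in H9, with HLA-DRB1 at 13.3, 32.7 and 8.75 CPM there and at 5.59, 4.50 and 4.18 CPM in HES2. Of 5 class II genes tested these 3 passed towards H9 and 0 towards HES2, beside 3.98% and 1.44% of all genes, with a median of -1.43. BRD2, a chromatin reader expressed in most cells and located in this region, was at 1.11, 0.408 and 0.324 CPM in H9 and at 7.38, 8.37 and 5.57 CPM in HES2.

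The table holds 11 of 132 protein-coding genes annotated in the HLA region (8.33%), beside 596 of 912 (65.4%) on the rest of chromosome 6, and the highest value in the region was 66.0 CPM. Values here therefore cover only part of the genes, and reads of 1 HLA gene may be listed under another or missing, which was not tested. None of the class II calls passed without either shDDX18#3 library. The class I calls of HLA-B and HLA-C passed without either shDDX18#1 library. HLA-C was lost without H9 shDDX18#3 and HLA-B without HES2 shDDX18#3.

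A similar reservation applies to copies of genes. MTND4P12, a nuclear copy of the mitochondrial gene MT-ND4, was at 179, 187 and 213 CPM in H9 and at 1.56, 1.61 and 0.835 CPM in HES2 (-6.39 with SE 0.21, adjusted p = 1.08e-05), while MT-ND4 itself was at 4937, 5089 and 5581 CPM and at 4645, 3683 and 4509 CPM. RPL13P12, a copy of the ribosomal protein gene RPL13, was at 88.3, 58.0 and 65.2 CPM in H9 and at 1.56, 1.29 and 1.95 CPM in HES2, beside 721 to 1341 CPM of RPL13 over all libraries. PPIAP31, a copy of the cyclophilin gene PPIA, was at 13.8, 10.2 and 9.08 CPM in H9 and at 0.447, 0.644 and 0 CPM in HES2, beside 566 to 968 CPM of PPIA. POU5F1P4 was at 32.7, 11.8 and 18.8 CPM in H9 and at 2.68, 0.644 and 0.835 CPM in HES2. In each of the 4 the copy separated the lines in every arm. A read placed on a copy can come from the parent gene where the sequences are alike, so these are differences in placed reads. Of 944 pseudogenes tested, 27 (2.86%) were higher in H9 and 13 (1.38%) in HES2, beside 3.98% and 1.44% of all genes.

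For this and the other lists, 1.44% of all genes tested were higher in HES2 and 3.98% in H9. Of the other genes with a known common polymorphism in copy number or expression, 3 of 30 were higher in HES2, 3 in H9 and 24 did not pass, with a median of 0.08. THNSL2 (above) was among those towards HES2. PEX6, needed for import into peroxisomes, was at 26.9, 40.4 and 28.5 CPM in H9 and at 9.61, 7.72 and 4.73 CPM in HES2 (-2.00 with SE 0.24, adjusted p = 0.00309). LRRC37A4P, in the inversion region of chromosome 17, was at 5.54, 3.27 and 4.86 CPM in H9 and at 20.8, 9.01 and 13.4 CPM in HES2. PSPHP1 had no read in H9 and was at 3.13, 0.965 and 1.95 CPM in HES2. Only 1 of these 6 calls passed without either shDDX18#3 library.

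Of 52 imprinted genes tested, 5 were higher in H9, 2 in HES2 and 45 did not pass, with a median of 0.03, the same as over all genes. H19 has been given above. IGF2, its neighbour and a fetal growth factor normally read from the other parental allele, was at 36.0, 115 and 164 CPM in H9 and at 55.7, 974 and 959 CPM in HES2 (2.08 with SE 0.38, adjusted p = 0.0182). In the shLuc arm the IGF2 levels were close, and the gap opened in the hairpin libraries, so that the lines overlapped over arms. NNAT, an imprinted membrane protein, was also higher in HES2 (1.55). ATP10A, a phospholipid flippase, was at 6.37, 47.4 and 22.4 CPM in H9 and at 1.34, 0.965 and 0.557 CPM in HES2 (-3.39), and DLX5, a homeobox gene, at 1.11, 13.1 and 4.21 CPM and at 0, 0.322 and 0.278 CPM. CPA4 (-1.70) and SLC22A3 (-1.04) were higher in H9 as well. Without H9 or HES2 shDDX18#3 only 1 of these 7 calls passed.

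Transcripts driven by HERVH, an endogenous retrovirus active in pluripotent cells, and related noncoding RNAs had 4 of 21 tested higher in H9, 1 in HES2 and 16 not called, with a median of -0.50. As over all genes, where 3.98% were higher in H9 and 1.44% in HES2, more of the calls lay towards H9. ABHD12B was at 75.3, 49.4 and 59.3 CPM in H9 and at 13.4, 3.54 and 5.01 CPM in HES2 (-3.07 with SE 0.24, adjusted p = 0.000399). LINC-ROR, a noncoding RNA linked to reprogramming, was at 46.0, 15.1 and 36.6 CPM in H9 and at 10.95, 5.79 and 11.7 CPM in HES2. ESRG, an abundant noncoding RNA of stem cells, was at 1146, 488 and 978 CPM in H9 and at 636, 212 and 392 CPM in HES2 (-1.12). HHLA1 (-1.24) followed the same pattern, and LINC01356 (0.77) was higher in HES2. Within each line these RNAs were lowest with shDDX18#1. ABHD12B alone of the 5 calls passed without either shDDX18#3 library.

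Genes of the primed pluripotent state, the state of conventional human stem cells, mostly did not differ: 5 of 44 were higher in H9, 3 in HES2 and 36 did not pass, with a median of -0.14. Among those higher in H9 were NTS, FGF2, POLR3G (-0.57) and ETV4 (-0.53), and higher in HES2 were DUSP6, TERF1 and ZIC2 (0.59). NTS, the peptide neurotensin, was at 201, 38.8 and 86.9 CPM in H9 and at 34.7, 28.0 and 25.6 CPM in HES2 (-1.56, adjusted p = 0.0281). FGF2, the growth factor these cells depend on, was at 185, 123 and 150 CPM in H9 and at 142, 49.2 and 77.1 CPM in HES2 (-0.88, adjusted p = 0.0236). Opposite to it, DUSP6, a phosphatase induced by FGF and ERK signalling, was at 105, 190 and 127 CPM in H9 and at 176, 399 and 309 CPM in HES2 (1.03, adjusted p = 0.00363), and SPRY4, another FGF feedback gene, at 167, 172 and 137 CPM and at 204, 278 and 231 CPM (0.57). Over the FGF list 3 of 29 were higher in H9 and 2 in HES2. The calls of FGF2, DUSP6 and SPRY4 did not pass without either shDDX18#3 library.

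Of 13 genes of the naive state, the earlier state of the embryo, 4 were higher in H9, 0 in HES2 and 9 did not pass, with a median of -0.25. CD70, an immune ligand, was at 4.71, 37.98 and 19.1 CPM in H9 and at 0, 0 and 0.278 CPM in HES2 (-3.92 with SE 0.48, adjusted p = 0.00338). KLF4 (-1.43), SUSD2 (-1.33) and NODAL (-0.63) had adjusted p between 0.0249 and 0.0478 and did not pass without either shDDX18#3 library. NODAL is counted in this list although it is the ligand that maintains the primed state, so its call is not particular to the naive state. NODAL was at 135, 90.2 and 82.7 CPM in H9 and at 47.9 and 50.1 CPM in the hairpin libraries of HES2, whose shLuc library lay within the H9 range. In its pathway the ligand INHBA was at 4.15, 115 and 42.8 CPM in H9 and at 0, 10.9 and 5.29 CPM in HES2 (-2.82 with SE 0.25, adjusted p = 0.00088). The activin antagonist FST was at 391, 334 and 209 CPM and at 83.4, 149 and 81.9 CPM (-1.57), and the NODAL antagonist CER1 at 154, 609 and 173 CPM and at 93.2, 94.0 and 71.0 CPM (-1.56). The receptor ACVR2B went the other way (0.72). Over the pathway 4 of 21 genes were higher in H9, 1 in HES2 and 16 did not pass, with a median of -0.06.

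In the WNT list 2 of 51 genes passed in each direction: the ligands WNT9A (-2.01) and WNT5A (-1.26) were higher in H9, and the receptor FZD4 (0.87) and the secreted antagonist SFRP1 (0.69) in HES2. SFRP1 was at 135, 201 and 162 CPM in H9 and at 241, 286 and 273 CPM in HES2, without overlap. Of 34 BMP genes 2 were higher in H9, the BMP antagonist GREM1 (38.8, 764 and 275 CPM in H9 against 4.02, 63.4 and 106 CPM in HES2) and the procollagen protease BMP1 (-1.22). The antagonist CHRD, chordin, was higher in HES2 (1.34). GREM1 passed with any 1 library left out, and none of the 4 WNT calls passed without either shDDX18#3 library.

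Markers of fibroblasts, which include genes of the feeder layer, had the largest share of calls among the lists, 19 of 27 (70.4%) higher in H9 and 0 in HES2, beside 3.98% and 1.44% of all genes, with a median of -1.47. COL1A1, the main chain of type I collagen, was at 687, 18386 and 6175 CPM in H9 and at 59.5, 1124 and 749 CPM in HES2 (-3.53 with SE 0.18, adjusted p = 4.02e-05). DCN, decorin, was at 5.54, 44.9 and 14.3 CPM in H9 and at 0, 0.965 and 0 CPM in HES2, and FAP, a protease of activated fibroblasts, at 0.831, 30.6 and 12.3 CPM and at 0, 0.322 and 0 CPM. VIM, the filament protein vimentin, was at 949, 2706 and 1784 CPM in H9 and at 129, 1453 and 1074 CPM in HES2 (-1.50, adjusted p = 0.0473). Not called were, among others, LUM (10.8, 74.7 and 35.7 against 4.69, 55.3 and 64.3 CPM), PDGFRA (11.6, 18.8 and 8.10 against 4.25, 18.0 and 13.1 CPM) and THY1 (231, 296 and 263 against 325, 100 and 177 CPM). Of the 27 genes, 22 were higher in H9 in all 3 arms and 1, TCF21, in HES2.

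Summed over the 27 genes, these markers held 0.477%, 4.67% and 1.93% of the reads in H9 and 0.196%, 0.843% and 0.694% in HES2. The sum was higher in H9 within each arm, and the hairpin libraries of both lines lay above their shLuc. Of these markers DCN and FAP had 0 reads in HES2 shLuc and shDDX18#3. Others were present in all 6 libraries, such as COL1A1, VIM, LUM, PDGFRA and PRRX1, a mesenchymal homeobox gene, at 7.75, 108 and 33.1 CPM in H9 and at 1.79, 27.0 and 18.4 CPM in HES2. Libraries of whole cultures cannot tell fewer cells of a type from less RNA per cell. The part that fibroblasts, of the feeder layer or derived from the stem cells, have in the matrix, HOX, mesoderm and p53 differences was not tested. Of the 19 calls all passed without either shLuc library, 11 without H9 shDDX18#1, 12 without HES2 shDDX18#1 and 6 without either shDDX18#3 library.

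**Figure D5:**
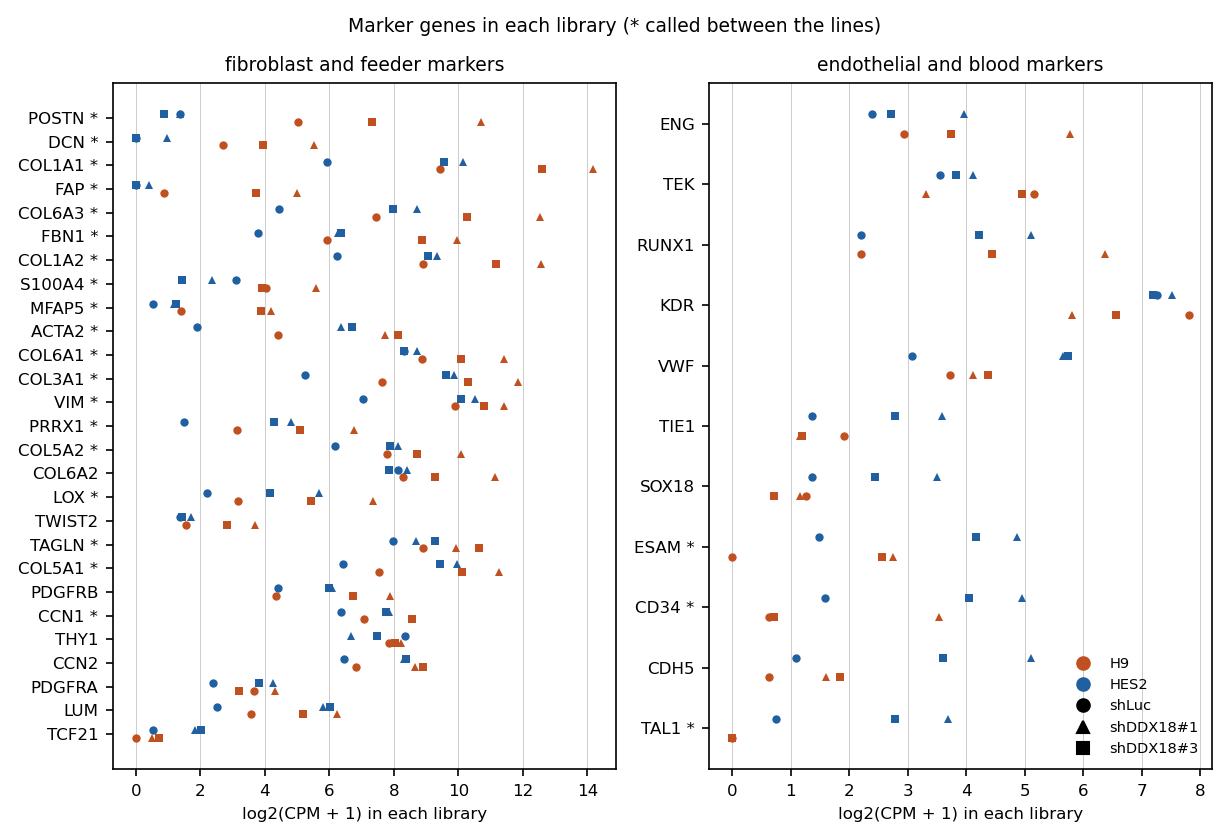
Level of the 27 fibroblast and feeder markers (left) and the 11 endothelial and blood markers (right) as log2(CPM + 1) in each of the 6 libraries (x axis), with line as colour, arm as symbol and a star on the genes called between the lines. On the left the H9 symbols lie to the right of the HES2 symbols of the same arm for most genes, and on the right the hairpin libraries of HES2 lie highest for TAL1, CDH5, CD34 and ESAM.

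Of 11 endothelial and blood genes 3 were higher in HES2 and 0 in H9, beside 1.44% and 3.98% of all genes, and 8 did not pass, with a median of 1.15. TAL1, a regulator of blood and vessel progenitors, had no read in H9 and was at 0.671, 11.9 and 5.85 CPM in HES2 (adjusted p = 0.0369). ESAM, an adhesion molecule of endothelial junctions, was at 0, 5.72 and 4.86 CPM in H9 and at 1.79, 28.3 and 17.0 CPM in HES2, and CD34, a marker of both lineages, at 0.554, 10.6 and 0.648 CPM and at 2.01, 29.9 and 15.6 CPM. CDH5, the cadherin of endothelium, was at 0.554, 2.04 and 2.59 CPM in H9 and at 1.12, 33.5 and 11.1 CPM in HES2 and did not pass (adjusted p = 0.0731). By arm, the median of the list was -0.01 for shLuc, 1.70 for shDDX18#1 and 1.58 for shDDX18#3. KDR, the VEGF receptor also expressed by stem cells, was at 223, 55.1 and 93.7 CPM in H9 and at 152, 182 and 145 CPM in HES2, and ENG at 6.64, 53.5 and 12.3 CPM and at 4.25, 14.5 and 5.57 CPM, both uncalled. Also uncalled, with fitted differences towards H9, were the angiopoietin receptor TEK (34.6, 8.98 and 29.8 CPM in H9, 10.7, 16.4 and 13.1 CPM in HES2) and RUNX1, a regulator of blood formation (3.599, 81.7 and 20.7 CPM in H9, 3.58, 33.5 and 17.5 CPM in HES2). ESAM and CD34 did not pass without any 1 of the 4 hairpin libraries. TAL1 did not pass without either H9 hairpin library, and without either HES2 hairpin library it was under the filter on low values.

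Outside the list, further genes known from endothelium were among the calls towards HES2 and were picked out after their values had been seen. CD93, a receptor of endothelial and myeloid cells, had no read in H9 and was at 1.34, 14.2 and 3.62 CPM in HES2. BCL6B was at 2.49, 0.408 and 0.324 CPM in H9 and at 8.27, 12.2 and 4.46 CPM in HES2, FGD5 at 3.599, 0.817 and 2.27 CPM and at 19.4, 7.40 and 8.63 CPM, and EXOC3L2 at 1.38, 0.817 and 2.59 CPM and at 5.37, 14.5 and 11.7 CPM. FGD5, a guanine nucleotide exchange factor, differed already in the shLuc arm. GNA14, a G protein subunit, was at 3.32, 3.27 and 5.84 CPM in H9 and at 29.7, 14.2 and 17.0 CPM in HES2, with the shLuc library highest. Whether few endothelial cells or a low level in many cells gave these reads cannot be told apart.

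Genes of endoderm and mesoderm passed in both directions and those of neural ectoderm towards H9, beside 3.98% of all genes called higher in H9 and 1.44% in HES2. Of 22 endoderm genes 4 were higher in H9, among them AFP (-1.64) and GSC (-1.39), and 3 in HES2, among them APOA2, an apolipoprotein of liver and yolk sac (1.11, 15.1 and 10.7 CPM in H9, 3.13, 52.1 and 27.6 CPM in HES2). Of 26 mesoderm genes HAND2 (-1.94), MYL7 (-1.73) and TWIST1 (-1.34) were higher in H9 and TBXT, brachyury, in HES2 (18.5, 6.53 and 3.89 CPM in H9, 38.2, 13.2 and 8.08 CPM in HES2). Neural ectoderm had 4 of 18 higher in H9 and 0 in HES2, with SOX3, a neural and pluripotency SOX factor, at 24.1, 38.8 and 67.4 CPM in H9 and at 12.3, 5.15 and 11.97 CPM in HES2 (-2.00, adjusted p = 0.0105). DLX5, MAP2 (-1.52) and NCAM1 (-1.29) were the other 3. Without either shDDX18#3 library 0 of the 15 calls of these 3 lists passed.

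In the neural crest list NGFR, the low-affinity neurotrophin receptor, was at 50.4, 44.5 and 133 CPM in H9 and at 5.37, 6.44 and 5.29 CPM in HES2 (-3.35 with SE 0.32, adjusted p = 0.00104), and this call passed with any 1 library left out. EDNRB, the endothelin receptor of crest cells, went the other way, at 24.6, 8.17 and 14.9 CPM in H9 and at 65.5, 28.0 and 31.5 CPM in HES2 (1.36). B3GAT1, which makes the HNK-1 epitope, was at 24.6, 15.1 and 24.3 CPM in H9 and at 40.7, 40.2 and 44.8 CPM in HES2. Of 14 trophoblast and amnion genes TFAP2C, a factor of trophoblast and naive cells, was at 32.4, 27.0 and 44.4 CPM in H9 and at 5.14, 6.44 and 6.13 CPM in HES2 (-2.34 with SE 0.22, adjusted p = 0.00104). GATA3 was higher in HES2 (3.05, 34.7 and 12.6 CPM against 5.59, 123 and 81.0 CPM) and IGFBP3 in H9 (34.3, 898 and 341 CPM against 5.14, 181 and 65.4 CPM). TFAP2C and NGFR were even over the HES2 arms, in contrast to GATA3 and IGFBP3. HOX genes had 2 of 18 higher in H9 and 0 in HES2, among them HOXA11 at 0.831, 16.3 and 5.19 CPM in H9 and at 0, 0.965 and 0.557 CPM in HES2.

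Targets of p53, the stress-activated tumour suppressor, were higher in H9 for 7 of 40 genes and in HES2 for 0, beside 3.98% and 1.44% of all genes, with a median of -0.48. CDKN1A, the inhibitor of cell cycle kinases, was at 102, 1238 and 445 CPM in H9 and at 32.9, 404 and 275 CPM in HES2 (-1.30 with SE 0.18, adjusted p = 0.00588). TP53I3 was at 53.4, 223 and 313 CPM and at 27.7, 113 and 118 CPM (-1.10), with CMBL (-1.01), FDXR (-0.90), RPS27L (-0.77), DDB2 (-0.71) and ZMAT3 (-0.65) in the same direction. In each arm CDKN1A and TP53I3 stood higher in H9, and both lines were above their shLuc with either hairpin. DDX18 was at a lower level in the H9 hairpin libraries (19.2 and 47.3 CPM) than in those of HES2 (39.3 and 60.4 CPM), and its part in this was not tested. The list's median was -0.73 in shLuc, -0.09 in shDDX18#1 and -0.46 in shDDX18#3. One of the 7 calls, CDKN1A, passed without either shDDX18#3 library.

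Of 15 mitochondrially encoded genes 6 were higher in H9 and 0 in HES2, with a median of -0.52, which shrank to -0.12 under quantile normalization. MT-CYB, a subunit of respiratory complex III, was at 2754, 2733 and 2954 CPM in H9 and at 1712, 1438 and 1657 CPM in HES2 (-0.82 with SE 0.13, adjusted p = 0.00912). MT-CO2 (-0.78), MT-ND5 (-0.71) and MT-ND6 (-0.82) did not overlap between the lines either. Mitochondrial transcripts summed to 5.59%, 4.36% and 5.51% of reads in H9 and 5.24%, 3.35% and 4.16% in HES2. MT-CO2, MT-CYB and MT-ND5 did not pass under quantile normalization, and 0 of the 6 passed without either shDDX18#3 library.

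Metabolic and stress lists held calls in both directions, beside 3.98% of all genes called higher in H9 and 1.44% in HES2. Of 25 genes of cholesterol synthesis 2 were higher in H9, among them its regulator SREBF2 (-0.48), and 23 did not pass. In glycolysis 2 of 20 genes were higher in HES2 and 1 in H9: SLC2A3, a glucose transporter, was at 1273, 3157 and 1968 CPM in H9 and at 2001, 5842 and 3862 CPM in HES2 (0.84), and HK1, a hexokinase, at 317, 199 and 281 CPM and at 183, 113 and 151 CPM (-0.83). Of 8 metallothioneins MT1E (-1.93) and MT2A (-1.66) were higher in H9 and 0 in HES2, and also higher in H9 were TRIM22 (-1.38) and IFITM2 (-0.81) of 32 interferon-stimulated genes. TRIM22, an antiviral ubiquitin ligase, was at 76.7, 94.7 and 153 CPM in H9 and at 33.8, 29.6 and 59.6 CPM in HES2, without overlap. The calls named here did not pass without either shDDX18#3 library.

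Other lists held no call at all in limma. They were 40 genes of S phase (median 0.30), 63 of ribosome biogenesis (0.14), 74 cytosolic ribosomal proteins (-0.14), 24 genes of the segment of chromosome 20 often gained in cultured stem cells (0.10) and 7 cancer-testis genes (0.06). For S phase 19 of 40 were higher in HES2 in all 3 arms and 0 in H9, beside 22.8% and 20.3% of all genes. The S phase median was 0.04 in shLuc, 0.68 in shDDX18#1 and 0.15 in shDDX18#3. Of the 74 cytosolic ribosomal proteins, 2 were higher in HES2 in all 3 arms and 42 in H9. Under quantile normalization their median was -0.0037. The S phase gene with the smallest p was E2F2, at 7.20, 0.408 and 1.62 CPM in H9 and at 14.5, 3.54 and 3.62 CPM in HES2 (1.14, adjusted p = 0.0744). In ribosome biogenesis it was DDX52, at 57.6 to 68.9 CPM in H9 and 83.8 to 92.4 CPM in HES2 (0.50, adjusted p = 0.0687), and on chromosome 20 XKR7, at 1.11 to 1.62 and 3.90 to 6.93 CPM (1.34, adjusted p = 0.0525).

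Clustered protocadherins, adhesion proteins of which single neurons use varied subsets, were higher in HES2 in all 3 arms for 15 of 22 and in H9 for 3, with a median of 0.75, and 3 and 1 passed. PCDHA10 was at 2.77, 6.94 and 7.46 CPM in H9 and at 17.7, 23.5 and 23.9 CPM in HES2 (1.83, adjusted p = 0.00481), with PCDHB5 (1.64) and PCDHB13 (1.45) alike, while PCDHA6 was higher in H9 (-1.56). Members of the PCDHA group share exons in part, so reads of its single members are uncertain. For PCDHB members the placing of reads was not tested. Of 502 zinc finger genes named ZNF, 11 (2.19%) were higher in HES2 and 8 (1.59%) in H9, beside 1.44% and 3.98% of all genes. ZNF680 was at 5.54, 3.27 and 4.21 CPM in H9 with no read in HES2, and ZNF488 at 24.9, 20.0 and 22.7 CPM and at 8.50, 2.57 and 7.24 CPM (-1.84). Without either shDDX18#3 library 0 of the 4 protocadherin calls and 1 of the 19 zinc finger calls passed.

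The line difference was also compared between hairpin and control libraries, that is, whether the knockdown effect differed between HES2 and H9. In this fit the 2 hairpins of a line stood in as replicates of 1 knockdown, so its error is the spread between hairpins. They left unequal DDX18 levels, 19.2 and 47.3 CPM in H9 and 39.3 and 60.4 CPM in HES2. In limma 0 genes passed (0% of those tested, smallest adjusted p = 0.935), with 788 at an unadjusted p under 0.05, 0 calls in edgeR and 13 (0.0732%) in DESeq2 on the recovered reads. ACTC1, the cardiac actin, was at 123, 168 and 278 CPM in H9 and at 43.1, 480 and 541 CPM in HES2, an interaction of 2.73 (SE 0.44, limma adjusted p = 0.935, DESeq2 adjusted p = 0.00285). IGF2 had an interaction of 2.19 (SE 0.36, DESeq2 adjusted p = 0.0299). COL22A1, a collagen, was at 6.64, 141 and 104 CPM in H9 and at 6.71, 3.86 and 9.47 CPM in HES2 (-4.11, DESeq2 adjusted p = 0.00285), and ID1, a BMP target, at 88.0, 35.9 and 37.0 CPM and at 72.0, 193 and 128 CPM (2.36, DESeq2 adjusted p = 0.0495). Each of these rests on 1 shLuc library per line, and the difference between the lines in their response is a call of DESeq2 only.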

How the data were processed

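RNA was sequenced from 6 libraries of the lines H9 and HES2 (TruSeq RNA kit, which does not keep strand). Per the submitters' processing notes, Bowtie2 2.3.4.3, SAMtools 1.9, HTSeq 0.11.2, edgeR 3.26.8 and hg19 were used, without the part of each. The authors deposited a normalized signal per gene and library. Divided by what 1 read is worth, 100% of values came out whole within 0.001, so the signal is CPM of an effective library. The authors' deposited log2 fold change, log2 abundance, likelihood ratio score, p-value and false discovery rate concern knockdown and were not used here.

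The 17768 genes that reached 1 CPM in 2 or more libraries (161 did not) were fitted on log2(CPM + 1) with limma 3.58.1 in R 4.3.3 (intensity trend, arm as a block, Benjamini-Hochberg adjustment over all genes, adjusted p under 0.05), on 2 residual and 8.41 total degrees of freedom. Adjusted p-values are limma's unless another tool is named. The fit pairs the libraries of the lines by their arm, as the labels give it. A fitted difference of a gene at 0 in one line depends on the pseudocount and is no bound. A floor is 3 reads, for counting error only. In addition, edgeR 4.0.16 and DESeq2 1.42.0 were run on the recovered reads. The fits were also run on simulated counts in which a line difference was the same in every arm. That run does not cover line differences that vary between arms, and its outcome is not given here. Chromosome, order and type of genes came from GENCODE 29 on GRCh38, promoters from RefSeq. Symbols came from the table for 15532 genes and from a name list for 600.

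The members and lists were chosen with earlier results of these data known. The naming rule took DDX18, the 15 largest differences in each direction among called genes with a symbol and a mean of at least 3 CPM, up to 4 called members of each list or its smallest p, and the smallest p of the interaction. Neighbours, parent genes and further endothelial, X-linked and HLA genes were picked with their values in view. A few called genes are counted but not reported here.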

Additional observations from a re-analysis of the deposited data

Results flagged for a closer look

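The 14 interaction genes examined were those with the smallest p in limma or called by DESeq2. Relative to the shLuc library of the same line, both hairpin libraries lay in opposite directions in H9 and HES2 for 8 of them. Choosing genes by their interaction favours opposite directions, and the share over all genes was not counted, so the 8 are a description. All 8 had an unadjusted p under 0.05 and a limma adjusted p of 0.935. PCAT14, a long noncoding RNA, was at 97.7, 75.1 and 89.1 CPM in H9 and at 13.6, 191 and 110 CPM in HES2 (interaction 3.57 with SE 0.48, DESeq2 adjusted p = 7.83e-05). ALDH1L2, a mitochondrial folate enzyme, was at 4.43, 58.8 and 27.2 CPM in H9 and at 10.5, 2.90 and 1.95 CPM in HES2 (interaction -4.68, DESeq2 adjusted p = 0.00285). RASGRF2, an exchange factor for RAS proteins, was at 29.3, 93.5 and 89.1 CPM and at 47.6, 29.6 and 30.4 CPM (interaction -2.26, DESeq2 adjusted p = 0.173). DKK1, a WNT antagonist, was at 27.1, 23.3 and 19.8 CPM and at 9.39, 57.3 and 42.9 CPM (interaction 2.61, DESeq2 adjusted p = 0.234). ID1, a BMP target, had an interaction of 2.36 (DESeq2 adjusted p = 0.0495). SP5, a WNT target, was at 156, 42.9 and 61.6 CPM in H9 and at 68.9, 191 and 100.2 CPM in HES2 (interaction 2.58, DESeq2 adjusted p = 0.0496). SEMA7A, a semaphorin, was at 44.0, 323 and 198 CPM in H9 and at 27.1, 18.98 and 27.0 CPM in HES2 (interaction -2.74, DESeq2 adjusted p = 0.0299), and its HES2 shDDX18#3 value was level with shLuc. COL8A2, a collagen, was at 1.66, 50.6 and 9.40 CPM in H9 and at 4.02, 0 and 0.278 CPM in HES2 (interaction -5.27, DESeq2 adjusted p = 0.0299), with at most 1 read in each HES2 hairpin library. None passed in edgeR (adjusted p = 0.965 for each).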

How the results depend on the processing

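Against 255 genes higher in HES2 and 708 higher in H9, limma without the intensity trend called 40 and 144. Without the arm in the model, that is with no replicate block, 7 and 29 passed, and all 36 were also called with the pairing by arm. Asking for at least 2-fold left 161 towards HES2 (488 towards H9), and DESeq2 called 142 (615 towards H9). edgeR, other pseudocounts, filters, scalings and a robust prior gave 187 to 322 and 546 to 865 genes. With 1 library left out, which takes its arm out of the line difference, 10 to 778 and 82 to 1397 genes passed. On and off genes numbered 41 and 17 at 2 CPM, and the interaction called 13 genes in DESeq2 against 0 in limma. It could not be fitted without a shLuc library. Of 141 named called genes 18 passed under each of 18 alternatives, among them ACOT2, ACTG2, ALPK3, CUTALP, DPEP1, EMC10, H19, LRRC61, MTND4P12, MYH14, NGFR, OXCT1, PPIAP31, PSMD5, RPL13P12, THNSL2 and ZBED6CL. None of these 141 called genes changed direction under the alternatives. Leaving out a library could not change it, since every called gene kept 1 direction in all 3 arms. The fits without the trend, with a robust prior or without the block keep the same fitted difference, so they could not change it either.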
